A study of Mus musculus and Oryctolagus cuniculus and Sus scrofa with 20 samples.

Results

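miR-743a, miR-743b and miR-742 are 3 microRNA (miRNA) hairpins that lie side by side on the mouse X chromosome, and each gives 2 mature miRNAs, 1 from its 5p arm and 1 from its 3p arm. These 6 mature miRNAs were described here, out of 1660 mature mouse miRNA entries that could be counted. The members were chosen by name, and a sequenced tag of 18 to 26 nt was counted for a member when its first 18 nt equalled those of the mouse mature miRNA. The study profiled small RNAs in 20 libraries of male germ cells and testes, and 11 of them, from mouse and rat, carry this description. All mouse libraries came from males.

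The mouse stage series held 7 wild type libraries. They were spermatogonial stem cells (SSCs) grown in culture, labelled C57BL/6 with no age label, pre-leptotene and leptotene spermatocytes from C57BL/6 mice of postnatal day 9, zygotene spermatocytes from day 13, pachytene spermatocytes and round spermatids from day 25, and mature sperm with no age label. A knockout experiment held 3 further SSC libraries of the strain C57BL/6 x DBA2 F1, postnatal day 15: an untreated wild type control, a miR-741 knockout made with TALEN nuclease plasmids and a miR-741 knockout made with CRISPR plasmids. Per the labels' protocols these SSCs carried an actin-EGFP transgene, grew on mouse embryonic fibroblast feeder cells, and knockout lines were single colonies picked after plasmid transfection. The protocol describes only the F1 mouse as a source of SSCs, which differs from the strain label of the first SSC library. The rat library was whole adult testis, wild type, and the labels do not say how many animals went into any library.

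A miRNA is cut from a hairpin, and one or both arms can be loaded into an Argonaute protein and repress mRNAs. Bases 2 to 8 of the mature strand, the seed, do most of the target pairing, so a mature strand that starts 1 nt later has another seed. The 3 hairpins belong to the miR-506 family, a fast-evolving group of X-linked miRNAs known for expression in the mammalian testis, and the family also holds miR-741, the miRNA that was knocked out.

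The mature sequences show what the 3 hairpins share, with the seed in capitals, 5′ to 3′, from RefSeq (GRCm38.p6).
miR-743a-3p: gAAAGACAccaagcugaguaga
miR-743b-3p: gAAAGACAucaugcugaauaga
miR-742-3p: gAAAGCCAccaugcuggguaaa
miR-743a-5p: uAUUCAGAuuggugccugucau
miR-743b-5p: uGUUCAGAcugguguccauca
miR-742-5p: uACUCACAugguugcuaauca
miR-743a-3p and miR-743b-3p have the same seed, AAAGACA, and no other of 1679 mature names has it. They are identical at 19 of 22 bases and differ by C9U, A12U and G18A, counted from 1 at the 5′ end with the miR-743a base first. miR-742-3p is identical to miR-743a-3p at 18 of 22 bases, and its difference A6C lies in the seed. The 5p arms are less alike, with 16 of 21 bases identical between miR-743a-5p and miR-743b-5p and 14 of 21 between miR-743a-5p and miR-742-5p. miR-743a-5p shares its seed with miR-871-5p of the same family, miR-743b-5p shares its seed with miR-6948-5p, and both arms of miR-742 have seeds that no other mature name has.

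The hairpins are shown with both mature arms in capitals.
miR-743a hairpin: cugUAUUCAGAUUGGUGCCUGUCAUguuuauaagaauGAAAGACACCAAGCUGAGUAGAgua
miR-743b hairpin: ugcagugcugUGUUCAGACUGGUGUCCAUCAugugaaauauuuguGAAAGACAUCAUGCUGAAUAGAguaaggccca
miR-742 hairpin: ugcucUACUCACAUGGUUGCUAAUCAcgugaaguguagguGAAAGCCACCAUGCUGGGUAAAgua
All 3 lie on the minus strand of chromosome X in GRCm38, Mir743 (miR-743a) at 66776757 to 66776818, Mir743b at 66777256 to 66777332 and Mir742 at 66780373 to 66780437. They cover 3681 bases from end to end, with 437 bases between Mir743 and Mir743b and 3040 between Mir743b and Mir742, and Mir883a follows 320 bases further on. None overlaps another annotated gene in GENCODE vM21, so they are intergenic. The processed pseudogene Gm14681 lies between Mir743b and Mir742, and the nearest protein-coding genes are Slitrk2, 115363 bases away, and Gm1140, 902462 bases away.

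Every group was 1 library, so differences between groups could not be set against a spread of replicates, and each comparison is of those libraries. Ranges in brackets are 95% exact intervals (Poisson for levels, Clopper-Pearson for shares, conditional binomial for ratios). They hold counting error alone, since reads carried no molecular identifiers. The 11 libraries held 597732 (CRISPR knockout) to 25908109 (mature sperm) reads. Reads of mature miRNAs numbered 314112 for pachytene cells and 491998 for round spermatids against 3555236 to 6087617 in the other mouse stages, and 196752 to 468367 in the 3 knockout experiment libraries. Of the marker miRNAs listed for cell types, those of meiotic and later germ cells summed to 5925 reads per 1000000 miRNA reads (RPM) in pachytene cells and 6718 RPM in round spermatids, against 1.81 to 131.2 in the other mouse stages. Those of epithelial cells summed to 13801 RPM in mature sperm against 135.3 to 423.2 in the 6 other stages, those of blood cells to 1348 in sperm against 1.45 to 44.6, those of gonadal somatic cells to 3391 in zygotene spermatocytes against 1.36 to 464.8, and those of stromal and feeder cells to 19289 in the first SSC library against 313.0 to 2808. The part of these markers in the results below was not tested. In such bulk libraries fewer cells of a type and less of a miRNA per cell cannot be told apart.

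miR-743b-3p was the main product of the 3 hairpins in every mouse stage. At the 7 stages in developmental order, from SSCs over the 4 spermatocyte stages and round spermatids to sperm, its level was 19458, 39466, 37960, 30504, 20461, 14295 and 11791 RPM. It ranked 4 among all counted miRNAs in pre-leptotene and leptotene spermatocytes, and between 7 and 13 in the other stages. No 2 of these 7 levels had overlapping counting intervals, the widest of which, in pachytene, ran from 19964 to 20967.

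miR-743a-3p, with the same seed, had another profile. In the same order of stages its level was 7599, 2300, 1814, 2316, 1926, 2313 and 1501 RPM. The SSC library stood above all others, and the 6 later stages lay within a narrow band in which pre-leptotene, zygotene and round spermatid levels had overlapping counting intervals.

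**Figure D1:**
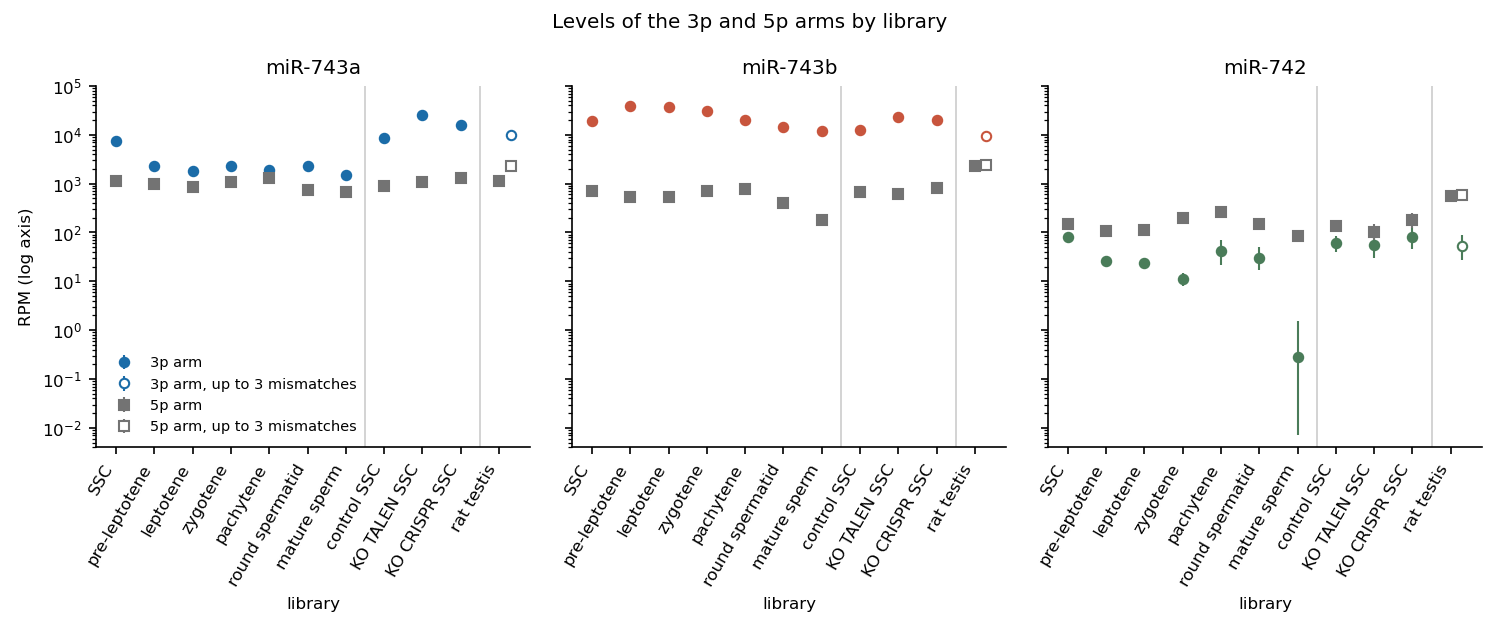
RPM (reads per 1000000 miRNA reads, log axis) of the 3p arm (circles) and the 5p arm (squares) of each hairpin in the 10 mouse libraries and rat testis, with 95% counting intervals as bars. Open symbols are rat reads with up to 3 mismatches to the mouse sequence, scaled by the total of exact matches and so not on the scale of the mouse levels. The 3 rat 3p arms have no filled symbol because their exact count was 0. miR-743b-3p is at 11791 RPM or above in all 10 mouse libraries, and miR-742-3p in sperm rests on 1 read.

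Between SSCs and pre-leptotene spermatocytes the 2 miRNAs that share a seed went opposite ways. miR-743b-3p was 2.03-fold higher (log2 1.02, 1.01 to 1.03), and miR-743a-3p was 3.30-fold lower (log2 -1.72, -1.75 to -1.70). The directions were the same on 3 other scales (all reads, TMM and DESeq2 size factors), from 1.02 to 2.52 for miR-743b-3p and from -1.72 to -0.22 for miR-743a-3p. SSCs were cultured and spermatocytes were isolated from testes, so culture and stage cannot be told apart at this step.

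The ratio of the 2 arms needs no scale between libraries. From SSCs to sperm there were 2.56, 17.2, 20.9, 13.2, 10.6, 6.18 and 7.85 miR-743b-3p reads per miR-743a-3p read. The first SSC library was the lowest of the series, and the ratio peaked in leptotene spermatocytes. In the 3 other SSC cultures it was lower again, at 1.44 in the control, 0.899 in the TALEN line and 1.25 in the CRISPR line, so all 4 SSC cultures lay below all 6 later stages. Of the reads with the seed AAAGACA at the annotated start, miR-743b-3p thus made up 71.9% (71.7 to 72.2) in SSCs, 95.4% (95.3 to 95.5) in leptotene and 47.3% (46.5 to 48.2) in the TALEN line.

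Counting rules moved the ratio without changing this order between cultures and stages. Over 4 other rules (whole mature sequence, 1 mismatch, 5′ end shifted by up to 2 nt, and 20 to 24 nt) it ran from 2.28 to 2.77 in SSCs and from 18.6 to 23.4 in leptotene. Mature sperm moved most, from 6.95 to 16.4, and the highest value came from matching the whole sequence.

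The 5p arms of miR-743a and miR-743b were below their 3p arms at each of the 7 stages, and that of miR-742 was above its 3p arm. From SSCs to sperm miR-743a-5p had 1110, 971.3, 853.5, 1099, 1334, 741.9 and 663.8 RPM. In the same order miR-743b-5p had 698.3, 534.2, 539.2, 711.9, 792.7, 404.5 and 182.8 RPM. miR-742-5p had 147.2, 107.6, 112.9, 195.6, 264.2, 150.4 and 86.6 RPM. On the RPM scale all 3 were highest in pachytene spermatocytes and lowest in sperm, though the pachytene interval of miR-743b-5p overlapped those of SSCs and zygotene cells and the sperm interval of miR-743a-5p that of round spermatids. The pachytene peak depended on the scale. With TMM the log2 difference from zygotene to pachytene was -0.11, -0.24 and 0.04 for the 3 arms in the order above. Per all reads it was -4.11, -4.24 and -3.96. Across these 7 libraries, which share their scale, Pearson's r of log2 levels was 0.90 between miR-743a-5p and miR-743b-5p and -0.01 between miR-743a-3p and miR-743b-3p.

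miR-742-3p was the least abundant member in all 10 mouse libraries. SSCs held 409 of its reads (79.7 RPM), pre-leptotene cells 157 (25.8 RPM), leptotene cells 113 (23.5 RPM) and zygotene cells 49 (11.1 RPM). Pachytene spermatocytes held 13 reads (41.4 RPM, 22.0 to 70.8), round spermatids 15 reads (30.5, 17.1 to 50.3) and mature sperm 1 read (0.281, 0.00712 to 1.57). SSCs were highest, with a counting interval of 72.2 to 87.8 that overlapped that of no other stage, and sperm was lowest at a depth of 3555236 miRNA reads. Pachytene, round spermatid and pre-leptotene levels could not be ordered at this depth.

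Together the 6 members took 2.91%, 4.34%, 4.13%, 3.48%, 2.48%, 1.79% and 1.42% of miRNA reads at the 7 stages from SSCs to sperm. Set against the whole listed miR-506 family (these 6 and 30 other arms), they were 5.49% to 6.44% in the 6 stages up to round spermatids and 17.7% in sperm. Among the other arms miR-741-3p had 140218 RPM in round spermatids and 24440 in sperm. The members' own share of miRNA reads was thus lower in sperm while their share of the family was higher. Epithelial markers summed to 174.8 RPM in round spermatids and 13801 in sperm, and their part was not tested.

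At each step of the stage series a difference of at least 4-fold was counted, and it was set against every miRNA that reached 100 reads in either library. From SSCs to pre-leptotene spermatocytes 0 of 6 members passed, where 57.7% of 333 miRNAs did, and their median log2 difference was -0.42 against -2.30 for all. The count was 0 of 6 from pre-leptotene to leptotene (0.472% of miRNAs), 0 of 6 from leptotene to zygotene (11.3%), 0 of 6 from zygotene to pachytene (22.7%) and 0 of 6 from pachytene to round spermatids (18.6%). From zygotene to pachytene 5 members reached 100 reads, and from pachytene to round spermatids 4 did. At the last step, from round spermatids to sperm, 42.6% of 204 miRNAs passed, and of the members only miR-742-3p was past 4-fold, with 15 reads against 1 (log2 -6.76, -12.16 to -4.06). None of the members with at least 100 reads passed at any of the 6 steps. At the last step the log2 difference of every member but miR-742-3p changed sign with the scale, between -0.62 and 2.09 for miR-743a-3p and between -0.28 and 2.44 for miR-743b-3p. Counted against all reads, all 6 members were more than 4-fold lower in pachytene than in zygotene spermatocytes, where miRNAs were 1.38% and 28.9% of reads. On that scale the median log2 difference of all 247 miRNAs was -4.52, and the members ran from -4.97 to -2.49. The members thus went with the shift of all miRNAs.

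The other arms of the family served as a comparison. From SSCs to pre-leptotene spermatocytes 1 of 23 other arms with at least 100 reads was at least 4-fold higher and 5 were lower, with a median log2 difference of -1.14. From round spermatids to sperm 0 of 21 were higher and 6 were lower, with a median of -1.21, and the median of the 5 members with at least 100 reads was -0.62. At the 4 steps between, 1 of 19 to 23 arms at most passed 4-fold. The neighbour miR-883a-3p had 14676 RPM in SSCs, 2817 in pre-leptotene spermatocytes, 4648 in round spermatids and 549.6 in sperm.

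By the likeness of log2 levels over the 7 stage libraries, the miRNAs nearest to each 3p arm among 356 were named. For miR-743a-3p they were miR-134-5p (Pearson's r 0.97), miR-410-3p (0.97) and miR-21a-5p (0.96). For miR-743b-3p they were miR-362-5p (0.97), miR-188-3p (0.95) and miR-470-5p (0.92), the last from the miR-506 family. For miR-742-3p they were miR-30e-5p (0.96), miR-463-3p (0.94) and miR-883a-3p (0.94), the last 2 from the family. Of these 9 only miR-362-5p was also among the 3 nearest to the same arm by Spearman's rho. With levels scaled by all reads, none of the 9 was among the 3 nearest to its arm.

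Arm use differed between the hairpins and, for miR-743a and miR-742, between cultures and stages. miR-743b was read almost only from its 3p arm, from 96.3% (95.8 to 96.7) in pachytene spermatocytes to 98.7% (98.6 to 98.7) in pre-leptotene, and at 94.9% (94.3 to 95.4) in the control SSCs, 97.4% in the TALEN line and 96.1% in the CRISPR line. The 3p share of miR-743a was 87.3% (86.9 to 87.6) in SSCs. From pre-leptotene to sperm it was 70.3%, 68.0%, 67.8%, 59.1%, 75.7% and 69.3%, with the widest interval, 56.0 to 62.1, in pachytene cells. The 3 other SSC cultures had 90.6%, 96.1% and 92.5%. All 4 SSC cultures thus lay above all 6 later stages, and their counting intervals did not overlap with any of the 6. Such a split was not particular to miR-743a. In the family hairpin miR-463 the 3p share was 52.8% in SSCs, 0% to 21.1% in the later stages and 37.2% to 81.5% in the other cultures. In miR-878 it was 49.5% in SSCs and 34.0% to 72.9% later.

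miR-742 was read mainly from its 5p arm. Its 3p share was 35.1% (32.4 to 38.0) in SSCs and, in the 4 spermatocyte stages in order, 19.3%, 17.2%, 5.35% (3.98 to 7.01) and 13.5% (7.41 to 22.0). Round spermatids had 16.9% (9.75 to 26.3), and sperm had 0.324% (1 of 309 reads, 0.00819 to 1.79). The 3 other SSC cultures had 30.8% (28 of 91 reads), 35.0% (14 of 40) and 31.4% (16 of 51), close to the first SSC library. The intervals of these 3 are wide, and that of the TALEN line, 20.6 to 51.7, includes an equal use of both arms. With the whole mature sequence required, the CRISPR line had 70.0% 3p reads, the 1 case in which another counting rule changed the leading arm. That share rests on 7 reads of the 3p arm and 3 of the 5p arm, too few to show a switch.

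**Figure D2:**
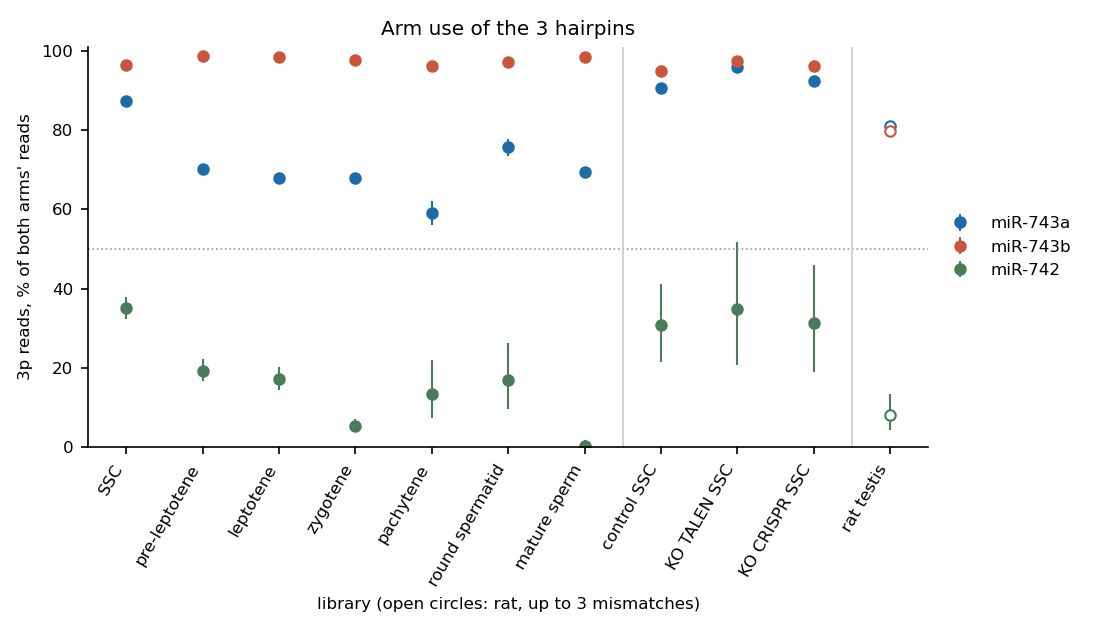
Share of 3p reads among both arms' reads (percent, bars are 95% Clopper-Pearson intervals) for each hairpin in the 10 mouse libraries, with rat reads of up to 3 mismatches as open circles. miR-743b stays above 94% in all mouse libraries, miR-743a is at 87.3% to 96.1% in the 4 SSC cultures and at 59.1% to 75.7% in the other stages, and miR-742 lies below the dotted line at 50% throughout.

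The 2 seed-sharing miRNAs also had a second 5′ end, which changes the seed. The forms that start 1 nt later are shown with their seeds in capitals, since these seeds differ from each other.
miR-743a-3p starting 1 nt later: aAAGACACcaagcugaguaga
miR-743b-3p starting 1 nt later: aAAGACAUcaugcugaauaga
Neither AAGACAC nor AAGACAU is the seed of any of the 1679 mature names. These forms were not counted in the levels above, which ask for the annotated start.

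Of the miR-743a-3p reads with either start, 26.8% (26.4 to 27.1) began 1 nt later in SSCs. The 4 spermatocyte stages had 21.2%, 21.8%, 23.9% and 23.0%, round spermatids had 27.7% (25.5 to 29.9), and sperm had 18.8% (17.8 to 19.7). For miR-743b-3p the share was 17.8% in SSCs, 11.9%, 12.1%, 11.9% and 11.5% in the 4 spermatocyte stages, 13.2% in round spermatids and 8.24% (7.99 to 8.49) in sperm. The 3 other SSC cultures had 26.5%, 22.7% and 21.5% for miR-743a-3p, and 15.1%, 13.4% and 16.3% for miR-743b-3p. miR-743a-3p was above miR-743b-3p in each of the 10 mouse libraries, with intervals that did not overlap.

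Sperm had the lowest share of both. The median of other miRNAs with at least 100 reads was between 0 and 0.251% in these libraries, and their 90th percentile between 6.13% and 12.9%. In SSCs 14 of 294 other miRNAs had a higher share than miR-743a-3p, and 24 had a higher share than miR-743b-3p. In sperm the counts were 14 and 24 of 180. miR-743b-3p lay below the 90th percentile in pre-leptotene cells (11.9% against 12.4%) and sperm (8.24% against 10.8%), and above it in the other mouse libraries. Of miR-742-3p, 3 reads in SSCs and 5 in zygotene spermatocytes started 1 nt later, beside 409 and 49 at the annotated start, and no such read was found in the 7 other mouse libraries tallied for it. The 3 5p arms had 1 such read at most in any library.

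**Figure D3:**
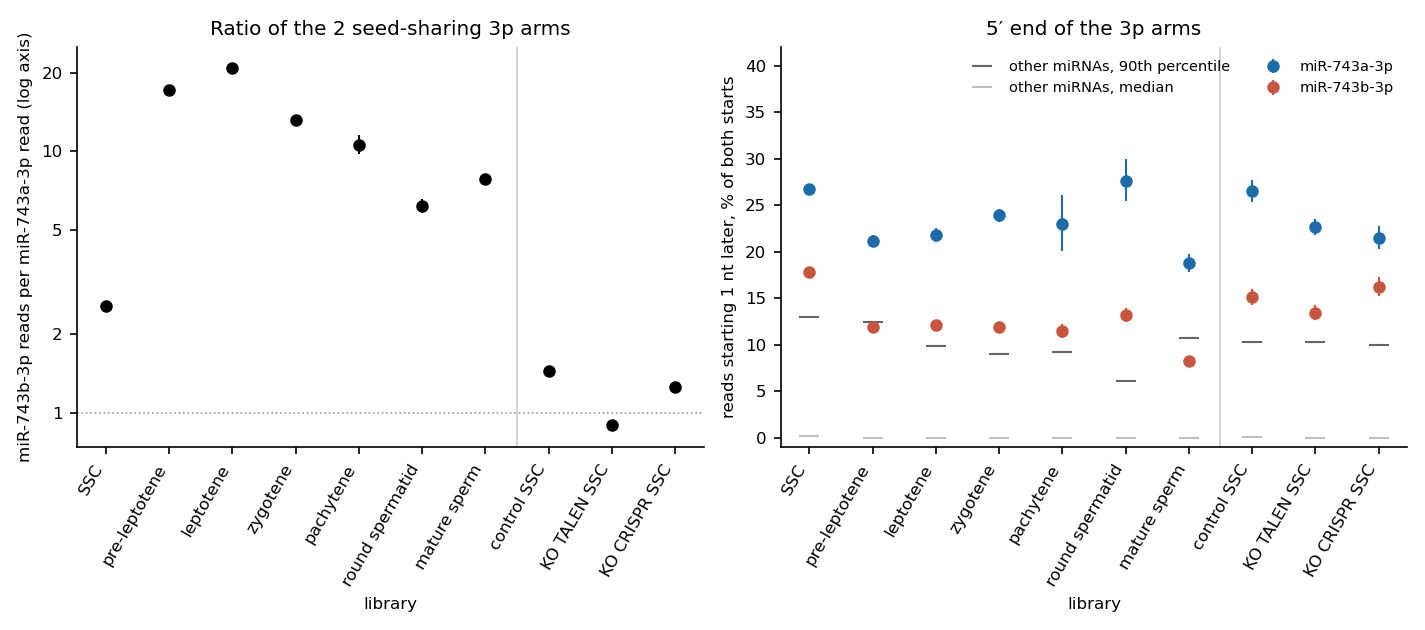
Left, miR-743b-3p reads per miR-743a-3p read (log axis) in the 10 mouse libraries, with the dotted line at 1. Right, the share of reads (percent) that start 1 nt after the annotated 5′ end, with 95% intervals as bars and the median and 90th percentile of other miRNAs as dashes. The ratio is 6.18 or above in the 6 stages after SSCs and 2.56 or below in the 4 SSC cultures, and miR-743a-3p has the larger shifted share in each library.

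At the 3′ end miR-743b-3p was uniform and miR-743a-3p was not. Of miR-743b-3p reads, 95.9% (round spermatids) to 99.6% (leptotene) were 22 nt long in the 10 mouse libraries. Of miR-743a-3p reads, 21 nt forms made up 39.1% (37.8 to 40.4) in sperm, against 3.82% (pre-leptotene) to 12.7% (pachytene) in the 9 other mouse libraries. miR-743b-3p had 0.503% of 21 nt reads in the same sperm library. Bases that the hairpin does not hold, here called tails, were also more frequent on miR-743a-3p in the last stages: tails of A were on 13.2% of its reads in round spermatids and 8.94% in sperm, and on 0.516% to 3.14% in the 8 other mouse libraries. In round spermatids 5 of 38 other 3p arms had a higher share of A tails than miR-743a-3p, and in sperm 17 of 73 did. In pachytene cells 7 of 45 did. miR-743b-3p had A tails on 1.93% of reads in round spermatids and 1.29% in sperm. The 90th percentile of A tails on other 3p arms was also higher there, at 18.1% and 17.2%. In the 8 other mouse libraries it was 3.96% (pachytene) to 9.22% (pre-leptotene). The median of other 3p arms was 1.56% and 1.58%, within the 0.769% to 2.10% of those 8 libraries.

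Tails of U, which appear as T in the sequenced tags, were frequent on the 5p arms. From SSCs to sperm, 13.3%, 44.3%, 46.0%, 40.4%, 54.9%, 58.4% and 60.2% of miR-743a-5p reads had one. For miR-743b-5p the shares were 6.505%, 30.5%, 29.5%, 29.8%, 32.5%, 36.2% and 52.9%. For miR-742-5p they were 27.9%, 44.9%, 55.2%, 49.7%, 59.04%, 62.2% and 68.5%. All 3 arms thus had their lowest share of the stage series in SSCs and their highest in sperm.

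The other SSC cultures were like the first. The control, TALEN and CRISPR cultures had 17.9%, 12.1% and 8.91% for miR-743a-5p, 7.01%, 4.97% and 8.02% for miR-743b-5p, and 20.6%, 26.9% and 31.4% for miR-742-5p, whose shares rest on 63, 26 and 35 reads. For miR-743a-5p and miR-743b-5p no SSC culture overlapped in its interval with a later stage. For miR-742-5p the TALEN and CRISPR intervals, 11.6 to 47.8 and 16.9 to 49.3, overlapped with those of several stages.

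Other 5p arms had a median U-tail share of 1.84% (CRISPR) to 4.46% (round spermatids), with a 90th percentile of 12.7% in the first SSC library and 21.9% to 28.7% in the 6 later stages. In sperm 1 of 95 other 5p arms had a higher share than miR-743a-5p, 2 than miR-743b-5p and 1 than miR-742-5p. In SSCs 13 of 143 were above miR-743a-5p, 43 above miR-743b-5p and 1 above miR-742-5p. The 90th percentile of other 5p arms thus also lay higher in the later stages than in SSCs. The 3p arms of miR-743a and miR-743b had U tails on 0.314% to 3.78% of reads in the 10 mouse libraries. miR-742-3p had more, with 21.03% (17.2 to 25.3) in SSCs, 38.2% (30.6 to 46.3) in pre-leptotene cells and 31.0% (22.6 to 40.4) in leptotene cells, the libraries with at least 100 of its reads.

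**Figure D4:**
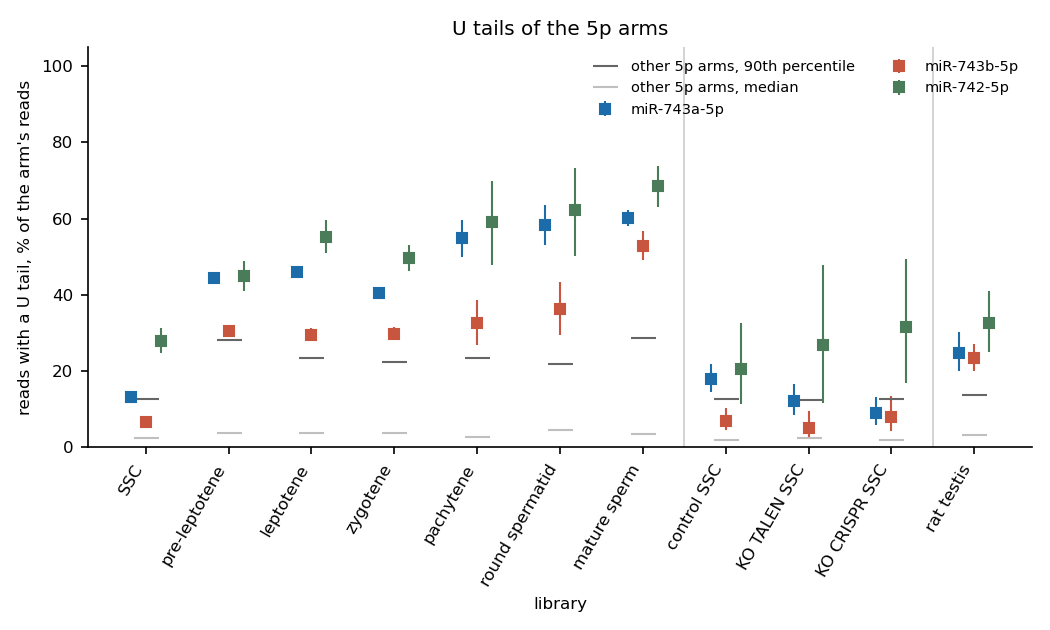
Share of each 5p arm's reads (percent, bars are 95% Clopper-Pearson intervals) that end in U bases absent from the mouse hairpin, in the 10 mouse libraries and rat testis, with the median and 90th percentile of other 5p arms as dashes. The 3 arms lie between 29.5% and 68.5% in the 6 stages after SSCs and between 4.97% and 31.4% in the 4 SSC cultures.

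The knockout experiment asked what is changed in SSCs that lack miR-741. miR-741-3p, the target, had 80096 reads in the control culture, 3 in the TALEN line and 5 in the CRISPR line. In the same order miR-741-5p had 282, 0 and 0 reads. With 0 set to the floor of 3 reads, miR-741-5p was 51.4-fold lower in the TALEN line and 39.5-fold lower in the CRISPR line. The counting intervals of these folds reached down to 41.6 for the TALEN line and 31.9 for the CRISPR line. The library labels and the target thus go together. Both lines are compared with the same control library, so their differences share its error. The lines were single colonies picked after transfection and the control was untreated. Knockout, clone and transfection thus cannot be told apart.

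miR-743a-3p and miR-743b-3p were higher in both knockout lines than in the control. miR-743a-3p had 8643 RPM in the control, 26061 in the TALEN line and 16142 in the CRISPR line, which is 3.02-fold (log2 1.59, 1.54 to 1.65) and 1.87-fold (log2 0.90, 0.83 to 0.97) higher. miR-743b-3p had 12458, 23416 and 20213, which is 1.88-fold (log2 0.91, 0.86 to 0.96) and 1.62-fold (log2 0.70, 0.64 to 0.76) higher. The intervals stayed clear of 0, but they hold no spread between cultures.

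By the rule of a 2-fold difference the same way in both lines 0 of 6 members passed, where 18.7% of 150 miRNAs did. The 150 all reached 100 reads, as did 4 of the members. When the whole mature sequence had to match, miR-743a-3p passed, at 1.89 and 1.18 on the log2 scale. miR-743a-5p (1.19- and 1.47-fold higher) differed by less, as did miR-743b-5p (log2 -0.09 and 0.30), miR-742-3p (-0.13 and 0.44) and miR-742-5p (-0.41 and 0.40). The last 3 had opposite signs in the lines, and miR-742-3p rested on 28, 14 and 16 reads. Of all 150 miRNAs, 46.7% were higher by any size in both lines, as were 3 of the 6 members, all 3 of which reached 100 reads. The 22 other family arms with at least 100 reads, which include the 2 arms of miR-741, had medians of 0.31 and 0.42. In the TALEN line 16 of the 22 were higher, 3 by at least 2-fold, and 6 were lower. In the CRISPR line 18 were higher, 5 by at least 2-fold, and 4 were lower. The 2 that were at least 2-fold lower in each line were the arms of miR-741.

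miR-741-3p was 17.1% of the control's miRNA reads, so totals with and without it differ. With miR-741 left out of the totals, an alternative chosen after seeing the data, miR-743a-3p was 1.32 and 0.63 higher on the log2 scale and miR-743b-3p 0.64 and 0.43 higher. miR-743a-5p then went from 0.26 to -0.017 in the TALEN line. Over all alternatives miR-743a-3p stayed between 1.32 and 1.89 in the TALEN line and between 0.63 and 1.18 in the CRISPR line. Markers of stromal and feeder cells summed to 16374 RPM in the control, 5645 in the TALEN line and 7482 in the CRISPR line, and their part in these differences was not tested.

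The 2 wild type SSC cultures were also compared, which gives the difference between 2 libraries and not a spread between cultures. Against the first SSC library, miR-743a-3p in the control was 1.14-fold higher (log2 0.19, 0.14 to 0.23) and miR-743b-3p was 1.56-fold lower (log2 -0.64, -0.68 to -0.61). No member passed 2-fold, where 23.4% of 320 miRNAs did. The difference of miR-743b-3p between the 2 wild type cultures was thus near the size of its difference between control and CRISPR line, and of the other sign. That of miR-743a-3p was smaller than in either knockout line. These 2 cultures also differ in the strain named on their labels.

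**Figure D5:**
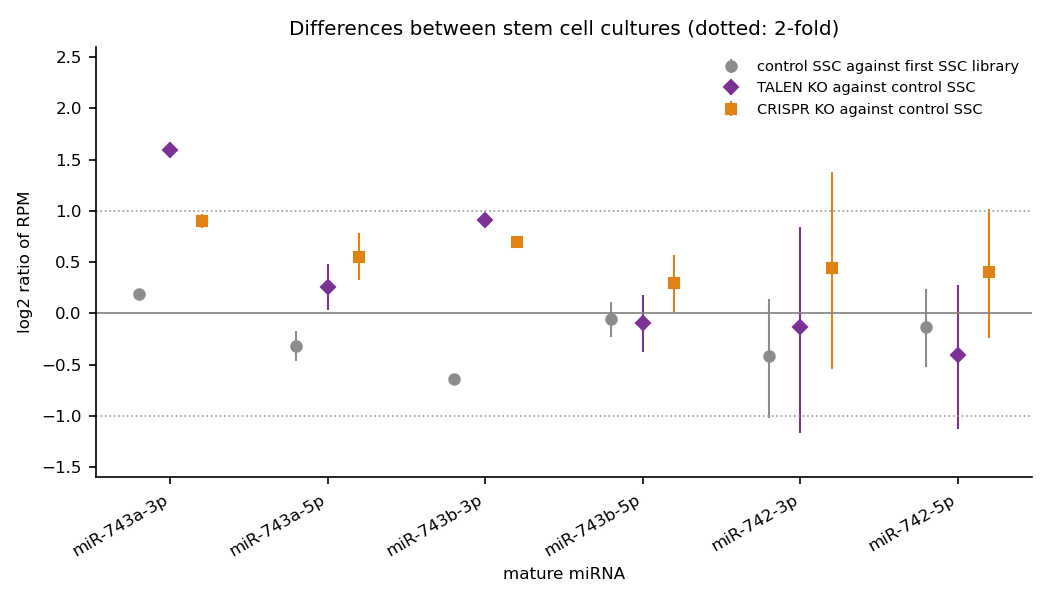
Log2 ratios of RPM with 95% counting intervals for the 6 members, for the control SSCs against the first SSC library and for both knockout lines against the control, with dotted lines at 2-fold. miR-743a-3p is at 1.59 and 0.90 in the TALEN and CRISPR lines, and miR-743b-3p at 0.91 and 0.70.

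In rat testis the mouse sequences matched the 5p arms but not the 3p arms. By the exact match miR-743a-5p had 282 reads (1129 RPM, 1001 to 1269), miR-743b-5p 577 (2310, 2126 to 2507) and miR-742-5p 138 (552.5, 464.2 to 652.8). Each of the 3 3p arms had 0 reads, where the floor of 3 reads is 12.01 RPM and the exact Poisson interval reaches 14.8 RPM. Reads near to all 3 were found once mismatches were allowed.

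With up to 3 mismatches in the first 18 nt to the nearest mouse miRNA, miR-743a-3p had 2455 reads, 2454 of them at 3 mismatches. miR-743b-3p had 2388 reads, 2101 of them at 2 mismatches, and miR-742-3p had 13. The leading tags of the rat library are shown with each base that differs from the mouse miRNA in capitals, written with t as in the files.
rat tag nearest to miR-743a-3p: gaaagacGccaaActgGgtaga
rat tag nearest to miR-743b-3p: gaaagacaCcatActgaataga
rat tag nearest to miR-743a-5p: tattcagattggtgcctgtcat
second rat tag near miR-743a-5p: tattcagattggtgccGgtcaCt
The first, with 1778 reads, differs from mouse miR-743a-3p by A8G, G13A and A17G, with the mouse base first, so its seed reads AAAGACG. The second, with 1558 reads, differs from mouse miR-743b-3p by T9C and G13A and keeps the seed AAAGACA. In the mouse these 2 miRNAs share their seed, and in these rat tags they do not.

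The leading miR-743a-5p tag, with 116 reads, equals the mouse sequence, and the other, with 69 reads, carries T17G and T22C. Reads nearest to miR-743a-5p numbered 282 with 0 mismatches and 275 with 1. Whether those with 1 mismatch are a form of miR-743a-5p or of another miRNA was not tested. In the mouse miR-871-5p has the same seed. The leading tags of miR-743b-5p, with 199 reads, and miR-742-5p, with 59, had no mismatch to the mouse miRNA. Whether these tags come from the rat orthologues was not tested, since no rat sequences were used here.

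Counted this way, the 3p share in rat was 80.9% (79.5 to 82.3) for miR-743a, 79.8% (78.3 to 81.2) for miR-743b and 8.07% (13 of 161 reads, 4.37 to 13.4) for miR-742. The 5p count of miR-743a, 578 reads, includes the 275 with 1 mismatch, and its 3p share would be higher without them. The leading arms were thus the same as in the mouse, while miR-743b had a lower 3p share than any of the 10 mouse libraries. The levels were 9829 RPM for miR-743a-3p and 9561 for miR-743b-3p, so the 2 were nearly equal, where the ratio of miR-743b-3p to miR-743a-3p was 0.899 to 2.56 in the 4 mouse SSC cultures and 6.18 to 20.9 in the 6 later stages. These rat levels were scaled by the 249761 reads with an exact match to a mouse miRNA. That total leaves out reads with mismatches, so the levels are not on the scale of the mouse levels. Rat testis was a whole tissue, which the mouse libraries were not, so species and tissue cannot be told apart.

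The ends of the rat reads resembled those of the mouse in part. Of the rat form of miR-743a-3p 23.8% (22.4 to 25.3) of reads began 1 nt later, within the range of the mouse libraries, and of the rat form of miR-743b-3p 22.3% (20.8 to 23.9) did, above all 10 mouse libraries. U tails, read against the mouse hairpins, were on 24.8% (19.9 to 30.3) of miR-743a-5p reads, 23.4% of miR-743b-5p reads and 32.6% (24.9 to 41.1) of miR-742-5p reads, against a median of 3.25% for other 5p arms. Markers of gonadal somatic cells summed to 17156 RPM in rat testis, and their part in these values was not tested.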

How the data were processed

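Small RNA libraries were made from total RNA by an Illumina protocol and sequenced for 50 cycles, per the labels' protocols. The authors deposited, for each library, distinct read sequences (tags) with raw read counts, which are not normalised. The submitters' processing notes name Bowtie and GRCm38 without roles, and trimming steps are not given in the sources used here.

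Tags of 18 to 26 nt were assigned to the mature miRNA with the same first 18 nt (RefSeq, 1679 mature names, 1660 entries after joining names with a shared start) and scaled per 1000000 reads so assigned. The table holds no entry for some miRNAs, such as miR-34c-5p and miR-143-3p, which are then outside the total. A count of 0 was set to a floor of 3 for ratios. The text names the 6 members, miR-741 in the knockouts, the 3 miRNAs most like each 3p arm by Pearson's r of log2(level + 1), and family arms that neighbour a member or share its seed. Members and lists were chosen with earlier results of these data known. Where nothing says that libraries came from several animals, intervals cover counting error only. No correction for ligation or amplification preferences was made, so ratios between sequences are ratios of reads. A 4-fold rule was used between stages and a 2-fold rule between SSC cultures. The shares past these folds were computed over miRNAs that reached 100 reads in any library of the comparison. The counting of differences past a fold was run on simulated Poisson counts with known folds. They held no spread between libraries and no change of the miRNA total, so they check the calculation only.

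Alternatives were matching of the whole sequence, 1 mismatch, a 5′ end shifted by up to 2 nt, tags of 20 to 24 nt, scaling by all reads, TMM factors (edgeR 4.0.16) and DESeq2 1.42.0 size factors. Tails were bases after the longest match to the hairpin, and a U or A tail held only that base. Positions are from GENCODE vM21. Python 3.11.15, pandas 2.3.3, SciPy 1.17.1 and R 4.3.3 were used.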

Additional observations from a re-analysis of the deposited data

Results flagged for a closer look

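Reads with the first 18 nt of the mouse members were also found in the libraries of other species, which the comparisons above do not use. The 6 members together had 129 reads in rabbit testis of day 10, 86 at day 30, 112 at day 60, 134 at day 70, 141 at day 80, 96 at day 90, 155 at day 110 and 74 at day 180, and 42 in pig testis. That is 20.9 (day 30) to 115.5 (day 110) reads per 1000000 miRNA reads, against 14225 to 51326 in the 10 mouse libraries. miR-743b-3p led in all 9 libraries, with 27 (pig) to 108 (day 110) reads, and there were 2.45 (pig) to 5.08 (day 30) of its reads per miR-743a-3p read, against 2.56 in the first mouse SSC library, 0.899 to 1.44 in the 3 other SSC cultures and 6.18 to 20.9 in the 6 later stages. The same exact match gave 0 reads of the 3p arms in rat testis. Where these reads come from was not tested.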

How the results depend on the processing

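No paired analysis was possible because each group is 1 library, and no library could be left out of a group. With the whole mature sequence required, the number of members past 4-fold was 1 from SSCs to pre-leptotene spermatocytes, 1 from zygotene to pachytene and 0 from round spermatids to sperm (0, 0 and 1 as reported), 1 member was past 2-fold in both knockout lines (0 as reported), and 247 rat 5p reads remained of 997. With TMM and with DESeq2 size factors 1 member each was past 4-fold from SSCs to pre-leptotene. Per all reads 6 were past 4-fold from zygotene to pachytene and 4 from round spermatids to sperm. The median log2 difference of all miRNAs at these steps was -4.52 and 2.53 on that scale. Rat 3p reads numbered 0 as reported, 11 with 1 mismatch and 4856 with up to 3. The sign of the members' log2 differences was kept in 42 of 52 cases with the whole sequence, 51 of 54 with 1 mismatch, 54 of 54 with a shifted 5′ end and with 20 to 24 nt, 32 of 54 per all reads, 42 of 54 with TMM, 39 of 54 with DESeq2 size factors and 11 of 12 without miR-741 in the total. Scaling moved the median of all miRNAs, for SSCs to pre-leptotene from -2.30 to -0.81 with TMM and for round spermatids to sperm from -0.19 to 2.53 per all reads. The leading arm was kept in 131 of 132 shares. Without the filter on low counts, 14 shares of miRNAs past a fold moved beyond their counting interval and 11 did not. Rat mature sequences were not used here. Depth limits miR-742-3p, with 1 to 49 reads in 7 of the mouse libraries.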
